A study of Mus musculus with 12 samples.

Results

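The genotype by dexamethasone interaction was measured in the livers of male C57Bl/6 mice as, for each gene, the response to dexamethasone in animals lacking Hdac6 minus the response in wild-type animals. All 12 arrays of the series entered it, labelled as biological replicates in 4 groups of 3: wild-type vehicle, wild-type dexamethasone, hdac6ko vehicle and hdac6ko dexamethasone. Dexamethasone was given at 1 mg/kg by intraperitoneal injection during 3 weeks, and all mice fed freely under the same 12 h cycle of light and dark. Neither the animals' age, the way the hdac6ko allele was made nor the hour of tissue collection is given in the sources used here. An interaction value, in log2 units, is above 0 where dexamethasone raised a gene more, or lowered it less, in the knockout. The same number is the knockout minus wild-type difference under dexamethasone less that difference under vehicle, so each value can be traced to the 6 vehicle arrays, the 6 dexamethasone arrays or both. These 2 differences share no array.

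Dexamethasone is a synthetic glucocorticoid that activates the glucocorticoid receptor, a hormone-dependent transcription factor held ready in the cytoplasm by the chaperone Hsp90. Hdac6 is a lysine deacetylase found mostly in the cytoplasm, where it acts on proteins such as alpha-tubulin and Hsp90 itself. In liver, glucocorticoids are known for raising genes of gluconeogenesis and metal binding, for lowering inflammatory genes, and for setting the phase of the circadian clock, a feedback loop in which Arntl and Clock drive Per and Cry genes whose proteins then repress them.

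The Hdac6 probe set (10603387, chromosome X) read 6.09, 6.08 and 6.43 in the wild-type vehicle arrays and 5.86, 6.18 and 5.92 in the wild-type dexamethasone arrays. It read 4.40, 4.07 and 3.90 in the hdac6ko vehicle arrays and 3.62, 3.89 and 3.75 in the hdac6ko dexamethasone arrays. Hdac6 was therefore lower in every knockout array than in every wild-type array, by 2.08 under vehicle (limma, adjusted p = 3.7e-05) and by 2.23 under dexamethasone (adjusted p = 1.5e-05), with an interaction of -0.15 ± 0.20 (SE). Transcripts of exocrine pancreas were present in 4 arrays, wild-type vehicle replicates 1 and 2, wild-type dexamethasone replicate 3 and hdac6ko vehicle replicate 3: their mean over 20 markers was 7.25 to 9.23 there and 2.96 to 3.29 in the other 8. The median interaction of these markers was 1.12, with none at an unadjusted p under 0.05. That median was 0.04 and 0.10 without wild-type vehicle replicates 1 and 2, and 3.33 without its replicate 3, where 3 markers reached an unadjusted p under 0.05. Over all arrays left out it lay between 0.04 and 3.33. Results were therefore also computed without these 4 arrays, which leaves wild-type vehicle with 1 array whose spread is taken from the other groups.

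No gene reached an adjusted p under 0.05 for a different response to dexamethasone in the knockout (limma with Benjamini-Hochberg adjustment, 0 of 17904 genes, 0%). The lowest adjusted p was 0.0756, for Rasa3. At an unadjusted p under 0.05 there were 1109 genes (6.19%), 613 with a value above 0 (3.42%) and 496 below 0 (2.77%). Of all genes 50.4% had a value above 0 and the median was 0.00. The median standard error was 0.16, and 110 genes had an interaction of at least 1 in size. Centring each array on its median changed the share above 0 among genes at an unadjusted p under 0.05 from 55.3% to 83.4%, and quantile normalisation changed it to 67.8%. A predominance of higher over lower values over all genes thus depended on the scaling, which moved the median of all genes by 0.07. Leaving out arrays gave between 0 and 3 genes at an adjusted p under 0.05. Those were Usp2 and Per1 without wild-type vehicle replicate 1, Rasa3, Myh1 and Spink1 without wild-type vehicle replicate 3, Rasa3 without hdac6ko vehicle replicate 3, and Cxcl1 without hdac6ko dexamethasone replicate 3. Without the 4 arrays with pancreas transcripts, Ciart alone passed, and it is named here after its values were seen.

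Among the genes at an unadjusted p under 0.05, the shares traced mainly to vehicle or to dexamethasone were near those of all genes. An arm of origin was set for each gene: it was assigned to the vehicle arrays where its genotype difference there was at least 2 times that under dexamethasone, and to the dexamethasone arrays in the reverse case. By that rule 268 of the 1109 genes (24.2%) differed mainly under vehicle, 359 (32.4%) mainly under dexamethasone, and 481 (43.4%) in opposite directions under the 2 treatments. Over all 17904 genes these shares were 27.9%, 30.8% and 18.1%. Choosing genes by a large interaction favours opposite directions, so the share of 43.4% is a property of that choice. The vehicle share by arm of origin moved to 14% without hdac6ko dexamethasone replicate 3, to 14.1% without wild-type dexamethasone replicate 1, to 36.9% without wild-type vehicle replicate 1 or replicate 3, and to 44.2% without the 4 arrays with pancreas transcripts.

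**Figure D1:**
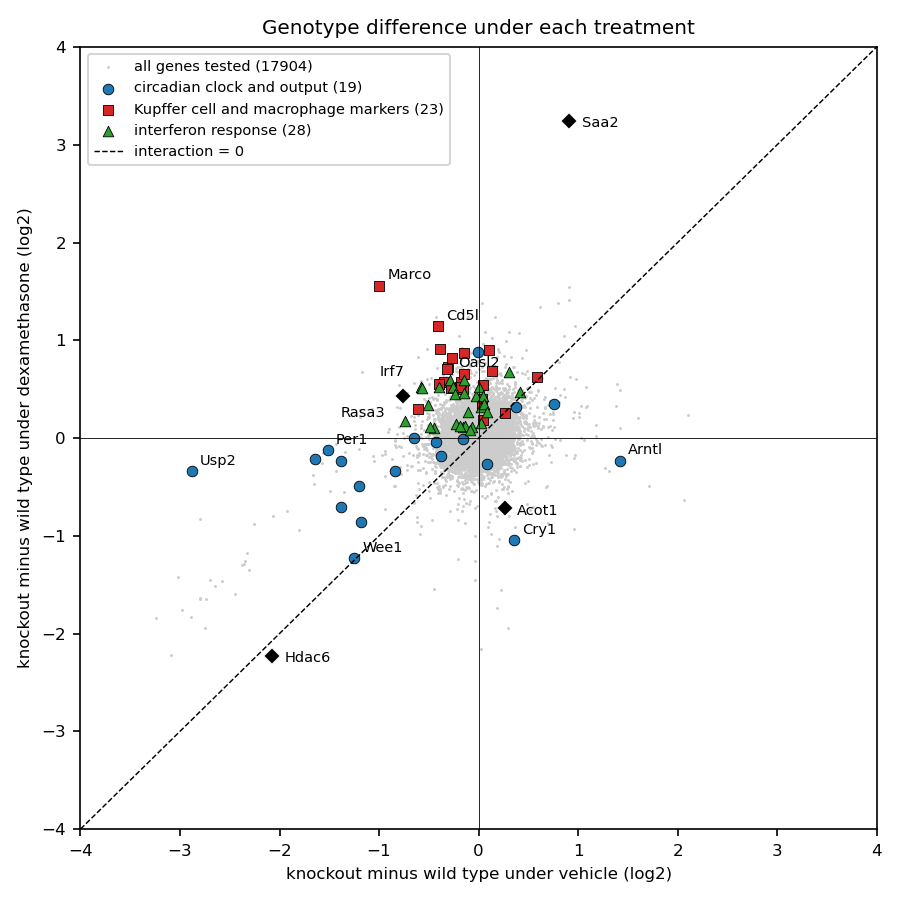
Knockout minus wild-type difference under vehicle (x axis, log2) and under dexamethasone (y axis, log2) for all 17904 genes, with 19 clock genes, 23 macrophage markers and 28 interferon-response genes in colour, Hdac6, Rasa3, Acot1 and Saa2 as diamonds, and a dashed line where the interaction is 0. Clock genes such as Usp2 and Per1 lie far to the left near the horizontal axis, whereas macrophage and interferon genes lie above the horizontal axis and mostly near the vertical one.

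Clock genes differed between the genotypes mainly in the vehicle arrays. The hour of tissue collection is not given, and whether it differed between the groups was not tested. The clock list and the lists below were chosen with earlier results of these data known, and their members were read on the same arrays. Their shares are therefore descriptions set beside those of all genes. Of 21 listed clock and output genes 19 were tested, and 10 of them (52.6%, against 6.19% of all genes) reached an unadjusted p under 0.05, 8 above 0 and 2 below. The median interaction was 0.39, made of a median genotype difference of -0.64 under vehicle and -0.23 under dexamethasone. Under vehicle, 11 of the 19 had all hdac6ko arrays below all wild-type arrays (6.04% of all genes) and 4 had them above (5.80% of all genes). Under dexamethasone, no clock gene had all hdac6ko arrays above wild type and 5 had them below (7.07% of all genes). By the rule above 12 members were assigned to the vehicle arrays (27.9% of all genes) and 3 to the dexamethasone arrays (30.8% of all genes). The list mean was 6.29 to 6.66 in wild-type vehicle and 5.80 to 5.96 in hdac6ko vehicle arrays, which did not overlap. It was 6.62 to 6.69 in wild-type dexamethasone and 6.26 to 6.49 in hdac6ko dexamethasone arrays, which stood closer but did not overlap either.

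The genotype effect under vehicle passed an adjusted p under 0.05 for 18 genes in all (0.101%), of which 11 were lower in the knockout (0.0614%). The clock list held 4 of those 11, Usp2, Per1, Per3 and Dbp. Under dexamethasone 5 genes passed (0.0279%), Hdac6, Gdap10, Mdfic, Acot1 and Saa2, none of them on the clock list, which had 0 higher and 6 lower at an unadjusted p under 0.05 (limma). Hdac6 was the only gene called under both treatments. The vehicle count was 28 without wild-type vehicle replicate 1 and 5 without replicate 2. It was 10 without hdac6ko vehicle replicate 2 or hdac6ko dexamethasone replicate 2, 8 without hdac6ko vehicle replicate 3, 5 without the 4 arrays with pancreas transcripts and 7 with the mean of the pancreas markers as a covariate. The dexamethasone count was 37 without hdac6ko dexamethasone replicate 3, 1 without its replicate 2 or without the 4 arrays with pancreas transcripts, and 2 with that covariate. It was 3 without wild-type dexamethasone replicate 1, and 2 without its replicate 3, wild-type vehicle replicate 2 or 3, hdac6ko vehicle replicate 2 or 3, or hdac6ko dexamethasone replicate 1.

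Usp2, a deubiquitinase whose transcript is a strongly rhythmic clock output in liver, had the largest interaction on the list (probe set 10584634, chromosome 9). It read 5.97, 7.49 and 7.19 in wild-type vehicle, 8.61, 8.66 and 8.65 in wild-type dexamethasone, 3.76, 4.0 and 4.25 in hdac6ko vehicle and 7.77, 8.48 and 8.65 in hdac6ko dexamethasone arrays. The knockout was lower in every vehicle array and overlapped with wild type under dexamethasone. Usp2 was 7.38-fold lower in the knockout under vehicle (adjusted p = 0.0043) and rose with dexamethasone 3.38-fold in wild type (adjusted p = 0.0026) and 19.7-fold in the knockout (adjusted p = 2.0e-06). The interaction was 2.54 ± 0.45 (SE, adjusted p = 0.25, and 0.0045 to 0.59 over the alternatives).

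Per1, a repressor of the clock loop that is also a direct target of the glucocorticoid receptor, followed the same order of groups. Its values were 4.67, 5.46 and 5.50 in wild-type vehicle, 6.21, 6.04 and 6.16 in wild-type dexamethasone, 3.40, 4.06 and 3.63 in hdac6ko vehicle and 5.90, 6.11 and 6.03 in hdac6ko dexamethasone arrays. Per1 was 2.86-fold lower in the knockout under vehicle (adjusted p = 0.011), with no separation under dexamethasone. It rose 1.90-fold in wild type and 4.98-fold in the knockout (adjusted p = 0.0092 and 8.9e-06), an interaction of 1.39 ± 0.29 (SE, adjusted p = 0.34).

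Ciart, another repressor of the loop, read 4.45, 6.59 and 5.92 in wild-type vehicle, 8.30, 8.46 and 8.70 in wild-type dexamethasone, 3.82, 3.78 and 4.44 in hdac6ko vehicle and 8.15, 8.38 and 8.28 in hdac6ko dexamethasone arrays. Wild-type vehicle replicate 1 was low for Usp2, Per1 and Ciart and stood closest to the knockout. The Ciart interaction was 1.43 ± 0.54 (SE, adjusted p = 0.75) with all arrays. It was 2.01 without the 4 arrays with pancreas transcripts, which leaves wild-type vehicle with replicate 3 alone and no measure of its spread. It was 0.96 without wild-type vehicle replicate 2, and 2.44 (adjusted p = 0.25) with the probe set of highest variance for each gene. With 1 array left out its adjusted p (limma) lay between 0.071 and 0.999.

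Arntl, the activator that drives Per and Cry genes, moved the other way. It read 4.22, 3.35 and 3.38 in wild-type vehicle, 4.34, 4.17 and 4.09 in wild-type dexamethasone, 5.66, 4.46 and 5.09 in hdac6ko vehicle and 4.04, 3.92 and 3.95 in hdac6ko dexamethasone arrays. The highest 3 of the 12 values were the hdac6ko vehicle arrays, and dexamethasone lowered Arntl in the knockout (-1.10, adjusted p = 0.019) but not past the threshold in wild type (0.55, adjusted p = 0.23). The interaction was -1.65 ± 0.37 (SE, adjusted p = 0.42).

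Cry1, a repressor that partners Per proteins, was the member at an unadjusted p under 0.05 whose difference lay in the dexamethasone arrays. It read 4.42, 4.35 and 4.59 in wild-type vehicle, 5.15, 5.23 and 6.02 in wild-type dexamethasone, 4.97, 4.65 and 4.81 in hdac6ko vehicle and 3.60, 4.46 and 5.20 in hdac6ko dexamethasone arrays. The 3 hdac6ko dexamethasone values spread over more than the distance between the group means, and the interaction of -1.40 ± 0.44 (SE) had an adjusted p of 0.67. Cry2, its paralog, had an interaction of 0.64, assigned to the vehicle arrays.

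The other members reaching an unadjusted p under 0.05 had values above 0: Bhlhe41, a repressor, 1.15, and the output transcription factors and repressor Dbp, Tef and Per3 0.68, 0.50 and 0.71. Dbp and Per3 were also lower in the knockout under dexamethasone, by 0.71 and 0.49, without passing the threshold (adjusted p = 0.34 and 0.49). Wee1, a cell-cycle kinase under clock control, and Per2 were lower in the knockout by like amounts under both treatments, Wee1 by 1.25 and 1.22 and Per2 by 1.18 and 0.86, and had interactions of 0.03 and 0.32. Nr1d1, which represses Arntl, fell with dexamethasone in both genotypes (-3.59 and -2.70, adjusted p = 0.00017 and 0.0016). Without the 4 arrays with pancreas transcripts the clock list had 7 values above 0 and 2 below at an unadjusted p under 0.05, and its median differences were -0.64 under vehicle and -0.28 under dexamethasone. The count of 8 above 0 fell to 4 without wild-type vehicle replicate 2 or hdac6ko vehicle replicate 2, and to 5 without wild-type dexamethasone replicate 2.

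**Figure D2:**
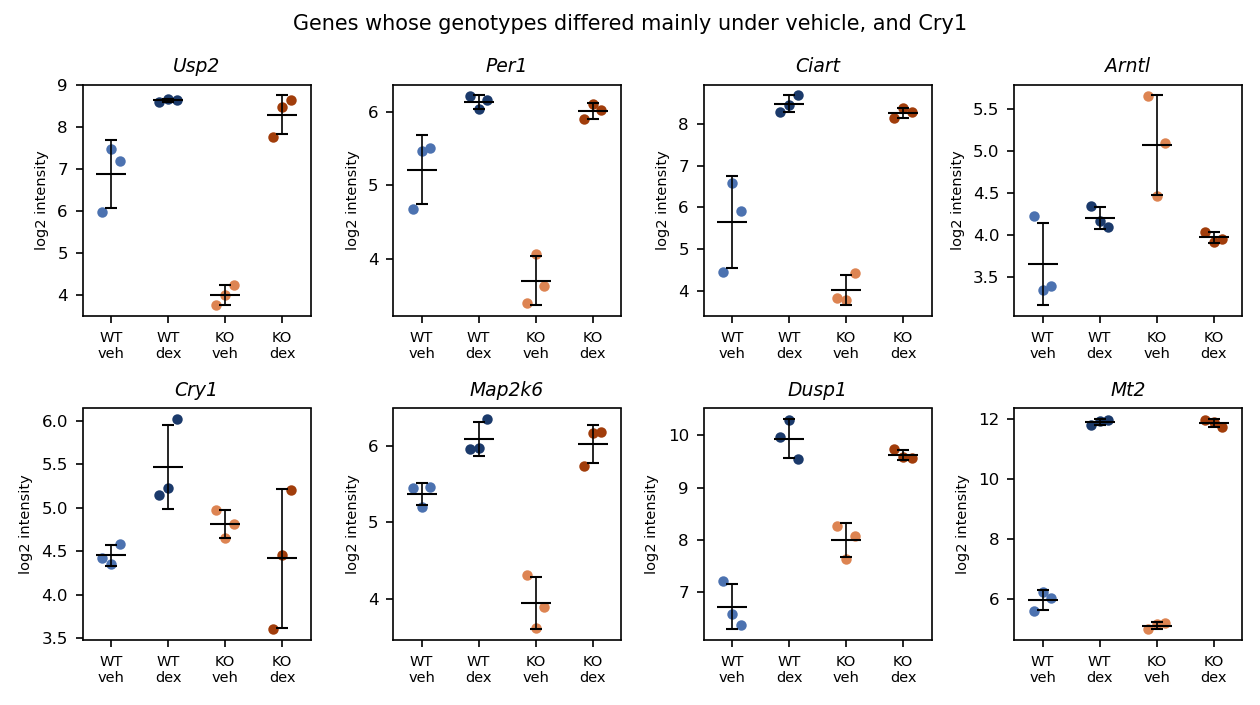
Log2 intensity per array of Usp2, Per1, Ciart, Arntl, Cry1, Map2k6, Dusp1 and Mt2 in the 4 groups of 3 arrays (WT, wild type; KO, hdac6ko; veh, vehicle; dex, dexamethasone), with the group mean (bar) and SD (whiskers). For Usp2, Per1, Ciart and Map2k6 the hdac6ko vehicle points lie below the wild-type vehicle points while the dexamethasone points of both genotypes lie together; for Arntl and Dusp1 the hdac6ko vehicle points lie above.

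Promoter windows of 250 bases before the transcription start (RefSeq, GRCm38.p6) were read for these genes, because Arntl and Clock bind the E-box. The letters CACGTG, which read the same on both strands, were in 6.86% of 27025 genes with a window and in 5 of the 16 clock genes that had one (31.3%), Per1, Ciart, Cry1, Bhlhe41 and Tef. They were also in 7 of 30 glucocorticoid-induced genes (23.3%), Per1 among them. The Per1 window is chr11:69098699-69098948 on the plus strand, with an E-box that starts 166 bases before the start, and is 1 of 2 windows of that gene. The Ciart window is chr3:95882229-95882478 on the minus strand, with E-boxes 116, 58 and 44 bases before the start. Both are shown 5′ to 3′ on the strand of the gene, with E-boxes in capitals.
Per1: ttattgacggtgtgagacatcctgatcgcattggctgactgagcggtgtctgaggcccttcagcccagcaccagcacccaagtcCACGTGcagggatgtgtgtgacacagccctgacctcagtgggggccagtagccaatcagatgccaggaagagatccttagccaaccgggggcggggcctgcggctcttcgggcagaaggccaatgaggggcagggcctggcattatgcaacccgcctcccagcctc
Ciart: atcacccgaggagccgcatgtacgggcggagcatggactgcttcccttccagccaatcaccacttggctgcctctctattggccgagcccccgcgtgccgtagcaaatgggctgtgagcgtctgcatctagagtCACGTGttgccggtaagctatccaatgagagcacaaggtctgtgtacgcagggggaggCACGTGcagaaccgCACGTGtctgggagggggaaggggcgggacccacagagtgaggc
The Usp2 and Arntl windows held no CACGTG. These matches describe the letters of a short window and were not set against binding data.

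Macrophage markers differed between the genotypes mainly in the dexamethasone arrays. All 23 listed Kupffer cell and macrophage markers were tested, and 14 (60.9%, against 6.19% of all genes and 3.42% above 0) reached an unadjusted p under 0.05, every one with a value above 0. The median interaction was 0.80, from a median genotype difference of -0.17 under vehicle and 0.58 under dexamethasone. In wild type 14 of the 23 markers fell with dexamethasone at an adjusted p under 0.05 (6.95% of all genes) and 1, Cd163, rose (4.57% of all genes). In the knockout none fell (limma, 2 at an unadjusted p under 0.05, against 3.92% of all genes at the adjusted threshold) and Cd163 rose (4.38% of all genes). The median response of the markers to dexamethasone was -0.82 for wild-type and -0.06 for hdac6ko livers. Under dexamethasone 11 markers had all hdac6ko arrays above all wild-type arrays (6.90% of all genes). The dexamethasone arrays were assigned 16 markers (30.8% of all genes) and the vehicle arrays 1 (27.9% of all genes). The mean over the list was 5.50 to 5.90 in wild-type dexamethasone, 6.03 to 6.77 in hdac6ko dexamethasone, 6.35 to 6.97 in wild-type vehicle and 6.29 to 6.55 in hdac6ko vehicle arrays. In bulk liver RNA, fewer macrophages and less RNA per macrophage cannot be told apart.

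Cd68, a lysosomal protein of macrophages, had the smallest p on the list. It read 5.87, 5.56 and 5.44 in wild-type vehicle, 4.75, 4.56 and 5.10 in wild-type dexamethasone, 5.32, 5.45 and 5.19 in hdac6ko vehicle and 5.43, 5.87 and 5.28 in hdac6ko dexamethasone arrays. The wild-type dexamethasone arrays were below all others. Cd68 fell 1.77-fold in wild type (adjusted p = 0.0064) and differed by 0.21 in the knockout (adjusted p = 0.62), an interaction of 1.03 ± 0.24 (SE, adjusted p = 0.42).

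Cd5l, a secreted protein of resident liver macrophages, read 8.25, 7.75 and 7.52, then 6.23, 5.85 and 6.79 in the wild-type vehicle and dexamethasone arrays. In the knockout it read 7.51, 7.63 and 7.14 under vehicle and 7.33, 8.01 and 6.98 under dexamethasone. Again only the wild-type dexamethasone arrays stood apart among the 4 groups: the fall was 2.92-fold there (adjusted p = 0.0027), and the knockout difference was 0.01. The interaction was 1.55 ± 0.39 (SE, adjusted p = 0.53).

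Msr1, a scavenger receptor, and Aif1, a calcium-binding protein of macrophages, had interactions of 0.80 ± 0.24 and 0.91 ± 0.28 (SE, adjusted p = 0.65 and 0.67). Msr1 fell by 1.21 in wild type, and its knockout difference of -0.41 did not pass. Aif1 fell by 1.22 in wild type, with -0.31 in the knockout, and was the marker assigned to the vehicle arrays, where hdac6ko was lower by 0.61. Timd4, a phosphatidylserine receptor of resident Kupffer cells, and C1qb, a complement subunit made by macrophages, had interactions of 1.30 and 1.03. Marco, a scavenger receptor, had the largest interaction on the list, 2.56 ± 0.89 (SE), with a wild-type vehicle value of 7.20 in replicate 1 and 4.70 and 4.19 in the others. Cd163, a haemoglobin scavenger receptor known to be raised by glucocorticoids, rose by 1.25 in wild type and 1.30 in the knockout, an interaction of 0.04. Fcgr3, an Fc receptor, had an interaction of -0.01 ± 0.26 (SE) and was the 1 marker below 0, which lay above 0 after centring or quantile normalisation.

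Without the 4 arrays with pancreas transcripts all 23 markers had values above 0, with a median interaction of 0.59 and median genotype differences of 0.07 under vehicle and 0.72 under dexamethasone, but 4 rather than 14 reached an unadjusted p under 0.05. With the mean of the pancreas markers as a covariate 14 did. Leaving out 1 array at a time gave 10 to 17. The sign of the vehicle median also turned, to 0.03, without wild-type vehicle replicate 1, and that median was -0.28 without its replicate 2 and -0.29 without its replicate 3.

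Interferon-response genes had the same order of groups. Of 33 listed genes 28 were tested, and all 28 had an interaction above 0 (50.4% of all genes). An unadjusted p under 0.05 was reached by 9 (32.1%, against 6.19% of all genes). The median interaction was 0.42, from genotype differences of -0.15 under vehicle and 0.34 under dexamethasone. The median under dexamethasone was 0.17 without hdac6ko dexamethasone replicate 2. The median under vehicle was -0.27, -0.05 and -0.08 without hdac6ko vehicle replicates 1, 2 and 3. With the 4 arrays holding pancreas transcripts left out it was -0.08. With dexamethasone 17 fell in wild type at an adjusted p under 0.05 (6.95% of all genes), and 3 in the knockout (3.92% of all genes). The median response was -0.69 and -0.16. The 3 were Irf1, Cxcl10 and Cxcl9, which also fell in wild type, and Usp18 and Irgm1 rose in both genotypes. By the rule on origin 13 genes were assigned to the dexamethasone arrays (30.8% of all genes) and 3 to the vehicle arrays (27.9% of all genes). Opposite differences were found for 11 (18.1% of all genes). List means were 5.02 to 5.05 in wild-type vehicle, 4.24 to 4.45 in wild-type dexamethasone, 4.67 to 5.15 in hdac6ko vehicle and 4.42 to 4.96 in hdac6ko dexamethasone arrays. The hdac6ko dexamethasone arrays were the most spread of the 4 groups, and replicate 3 overlapped with wild type.

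Oasl2, an antiviral protein of the oligoadenylate synthetase family, read 4.43, 4.47 and 4.33 in wild-type vehicle, 3.41, 3.55 and 3.52 in wild-type dexamethasone, 4.04, 4.03 and 4.29 in hdac6ko vehicle and 4.08, 4.31 and 3.89 in hdac6ko dexamethasone arrays. Dexamethasone lowered it 1.89-fold in wild type (adjusted p = 0.00016) and the knockout groups overlapped, differing by 0.03. The interaction was 0.89 ± 0.16 (SE, adjusted p = 0.25).

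Irf7, the transcription factor that amplifies type I interferon production, read 6.65, 6.75 and 6.63 in wild-type vehicle, 5.85, 5.57 and 5.91 in wild-type dexamethasone, 6.30, 5.94 and 6.05 in hdac6ko vehicle and 6.27, 6.63 and 6.01 in hdac6ko dexamethasone arrays. The knockout was below wild type in every vehicle array and above it in every dexamethasone array. Irf7 fell 1.86-fold in wild type (adjusted p = 0.0016), differed by 0.20 in the knockout, and had an interaction of 1.10 ± 0.21 (SE, adjusted p = 0.26).

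Rtp4, an interferon-induced chaperone of receptors, and Ifit1, which binds foreign RNA ends, had interactions of 0.92 ± 0.32 and 0.84 ± 0.32 (SE, adjusted p = 0.75 for each). Rtp4 fell by 1.44 and Ifit1 by 1.34 in wild type, with -0.52 and -0.50 in the knockout, which did not pass. Without the 4 arrays with pancreas transcripts 26 of the 28 genes were above 0, the median was 0.50, and 4 reached an unadjusted p under 0.05. That count was 4 without wild-type dexamethasone replicate 2, 5 without wild-type vehicle replicate 1 or replicate 2 of either hdac6ko group, and 15 without hdac6ko vehicle replicate 1 or hdac6ko dexamethasone replicate 3.

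**Figure D3:**
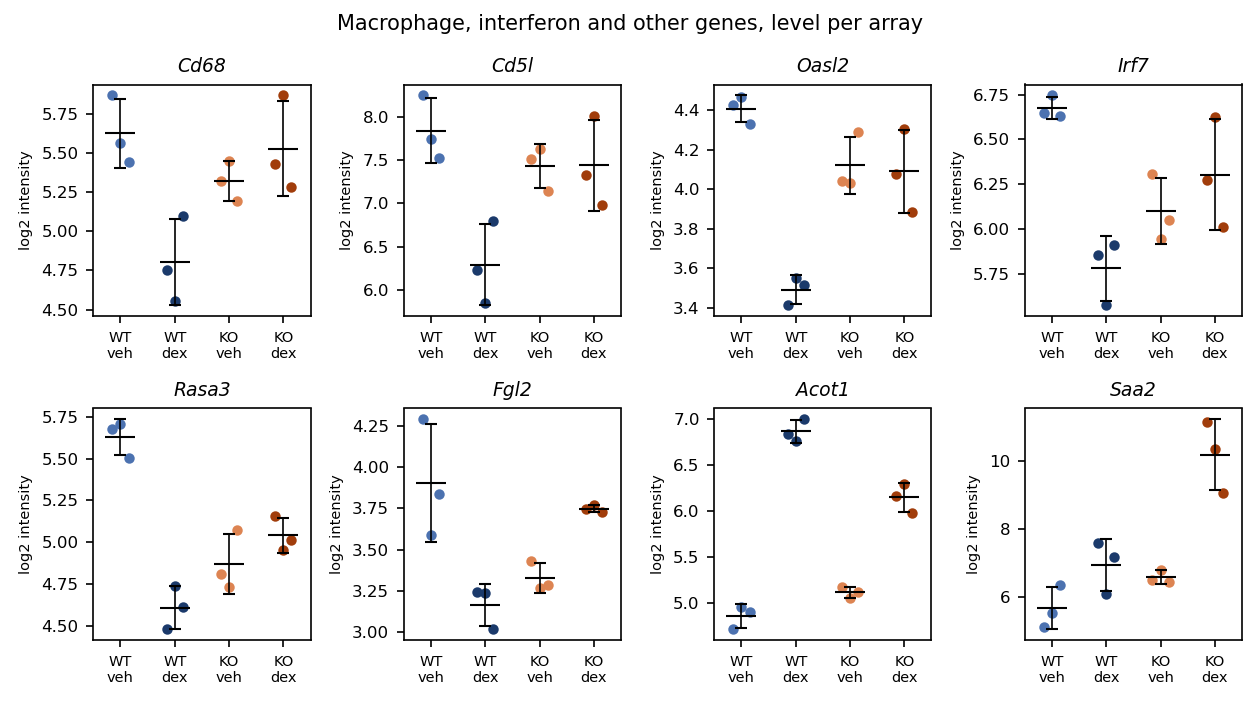
Log2 intensity per array of Cd68, Cd5l, Oasl2, Irf7, Rasa3, Fgl2, Acot1 and Saa2 in the 4 groups of 3 arrays (WT, wild type; KO, hdac6ko; veh, vehicle; dex, dexamethasone), with the group mean (bar) and SD (whiskers). For Cd68, Cd5l, Oasl2 and Irf7 the wild-type dexamethasone points lie below those of the other 3 groups; for Acot1 they lie above, and for Saa2 the hdac6ko dexamethasone points lie above.

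The interferon-stimulated response element, bound by interferon regulatory factors, was searched as GAAA, any 2 bases and GAAA again, on both strands of the same promoter windows. It was in 3.46% of all genes with a window, in 8 of 20 interferon-response genes (40.0%) and in 1 of 17 macrophage markers, Aif1. The Ifit1 window, chr19:34640639-34640888 on the plus strand, held it 104 and 85 bases before the start in reverse orientation, shown in capitals.
Ifit1: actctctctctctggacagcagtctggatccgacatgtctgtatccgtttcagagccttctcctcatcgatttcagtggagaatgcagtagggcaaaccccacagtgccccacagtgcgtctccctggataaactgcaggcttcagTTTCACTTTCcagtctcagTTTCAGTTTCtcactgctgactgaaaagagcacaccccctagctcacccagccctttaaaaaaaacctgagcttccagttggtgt
The Irf7 and Oasl2 windows did not hold these letters, and no E-box was in the windows of the 20 interferon-response genes or the 17 macrophage markers.

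Among lists of other inflammatory genes and other non-parenchymal cells the medians were smaller and not all of the same sign. The median was -0.04 over 18 T and NK cell markers, 0.12 over 12 B cell markers and -0.10 over 13 neutrophil markers. At an unadjusted p under 0.05 (limma) these had 0, 1 and 0 members above 0 and none below. Their list means were low, at 2.55 to 2.75, 2.53 to 2.89 and 2.63 to 3.26 over the arrays. The arrays' 20th percentiles were 2.17 to 2.23 and their medians 3.13 to 3.24. Whether dim signals account for the small median interactions was not tested. The neutrophil list also held Lcn2, which rose strongly with dexamethasone in both genotypes. The median interaction was 0.36 over 10 genes of MHC class II presentation, 0.24 over 20 endothelial markers, 0.20 over 27 NF-kB targets, chemokines and cytokines and 0.17 over 26 stellate cell and matrix genes. At an unadjusted p under 0.05 these lists had 1, 4, 6 and 4 genes above 0 (3.42% of all genes) and none below (2.77% of all genes). Without the 4 arrays with pancreas transcripts the counts were 0, 1, 2 and 0.

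Ifi30, a reductase of antigen processing, was the MHC class II list's gene at an unadjusted p under 0.05, with 0.77, and Ctss, a protease of the same step, had 0.65. That count of 1 was 3 without hdac6ko dexamethasone replicate 3 and 0 without wild-type vehicle replicate 1 or hdac6ko dexamethasone replicate 2. Icam1, an adhesion molecule for leukocytes, fell by 0.72 in wild type (adjusted p = 0.016) and differed by -0.02 in the knockout. Vcam1, another such molecule, rose in both genotypes, by 1.77 and 2.35. Tnfaip3, an inhibitor of NF-kB signalling, had an interaction of 0.45, and Cxcl1, a chemokine for neutrophils, 0.91. Cxcl1 read 6.14, 6.43 and 4.94 in the hdac6ko dexamethasone arrays against 5.04 to 5.31 in wild type, so replicate 3 stood on the other side of wild type. Its interaction was 1.36 (adjusted p = 0.040) without that replicate. The NF-kB count of 6 was 3 without hdac6ko dexamethasone replicate 1 or hdac6ko vehicle replicate 3.

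Among endothelial markers Lyve1, a hyaluronan receptor of sinusoids, rose by 1.80 in wild type and 2.62 in the knockout, and lay lower in the hdac6ko vehicle arrays (4.94, 5.12 and 4.51 against 5.49, 5.45 and 5.57). Cdh5, the adhesion protein of endothelial junctions, fell by 0.62 in wild type (adjusted p = 0.011) and differed by -0.06 in the knockout. The scavenger receptor Stab1 had an interaction of 0.42. The endothelial count of 4 was 7 without hdac6ko vehicle replicate 3 and 8 with each array centred on its median.

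For stellate cell and matrix genes 14 of 26 were assigned to the vehicle arrays (27.9% of all genes). Their median genotype difference under vehicle was -0.18, and -0.07 without the 4 arrays with pancreas transcripts. The median interaction was 0.07 without those arrays. Vim, an intermediate filament protein, read 7.47, 7.37 and 7.18 in wild-type vehicle and 6.62, 6.26 and 6.62 in hdac6ko vehicle arrays, and Col3a1, a fibrillar collagen, 5.90, 5.68 and 5.68 against 5.46, 5.16 and 5.36. Both were lower in all hdac6ko vehicle arrays and overlapped under dexamethasone. Their interactions were 0.77 and 0.43. The count of 4 was 2 without wild-type vehicle replicate 1, wild-type dexamethasone replicate 1 or hdac6ko vehicle replicate 2, and 7 without wild-type vehicle replicate 3.

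**Figure D4:**
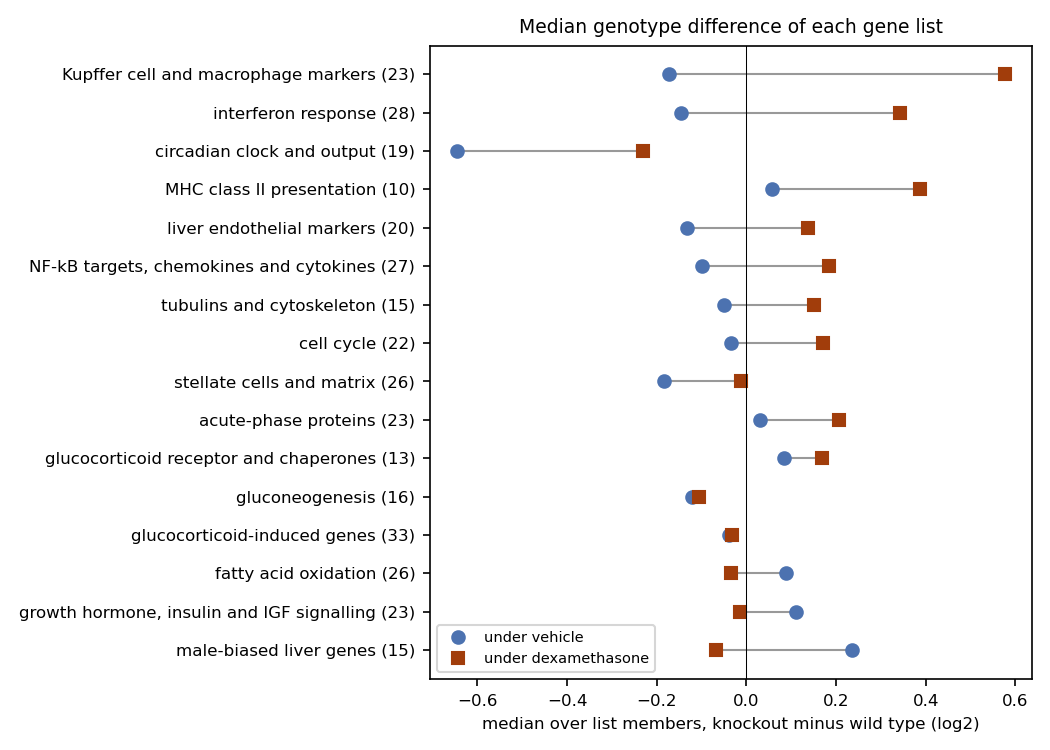
Median knockout minus wild-type difference (log2) over the tested members of each gene list under vehicle (circles) and dexamethasone (squares), ordered by the median interaction, with the number of members in brackets. The clock list has its largest distance from 0 under vehicle, -0.64, and the macrophage and interferon lists have theirs under dexamethasone, 0.58 and 0.34.

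Acute-phase proteins, which hepatocytes secrete during inflammation, had 5 of 23 tested members above 0 and none below at an unadjusted p under 0.05. That is 21.7%, against 3.42% of all genes above 0 and 2.77% below. The median interaction was 0.12. All 5 were assigned to the dexamethasone arrays, as were 12 of the 23 members (30.8% of all genes). Saa2, a serum amyloid A lipoprotein, read 5.12, 5.52 and 6.35 in wild-type vehicle, 7.56, 6.07 and 7.16 in wild-type dexamethasone, 6.50, 6.80 and 6.42 in hdac6ko vehicle and 11.13, 10.35 and 9.05 in hdac6ko dexamethasone arrays. The last group was above all others, 9.46-fold higher than wild type under dexamethasone (adjusted p = 0.044). The interaction was 2.33 ± 0.67 (SE, adjusted p = 0.61). Saa1, a near-identical neighbour that may share probe signal, had an interaction of 0.18.

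Serpina3n, a protease inhibitor, read 10.87, 10.76 and 10.61 in wild-type vehicle, 11.45, 11.23 and 11.16 in wild-type dexamethasone, 10.69, 10.41 and 10.62 in hdac6ko vehicle and 12.41, 12.06 and 11.53 in hdac6ko dexamethasone arrays. It rose 2.69-fold in the knockout (adjusted p = 0.00018), and the wild-type difference of 0.53 did not pass (adjusted p = 0.074). The interaction was 0.90 ± 0.25 (SE, adjusted p = 0.60). Orm2, a plasma transport protein, and Itih4 had interactions of 0.73 and 0.47. Lcn2, an iron-scavenging protein, rose by 6.40 and 6.33 in the 2 genotypes, an interaction of -0.07. The count of 5 was 2 without hdac6ko dexamethasone replicate 2, 3 without wild-type vehicle replicate 2, wild-type dexamethasone replicate 3 or hdac6ko vehicle replicate 2, and 1 without the 4 arrays with pancreas transcripts.

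Cell-cycle genes gave 4 of 22 tested members above 0 and none below at an unadjusted p under 0.05. That is 18.2%, against 3.42% of all genes above 0 and 2.77% below. The median was 0.19, and 12 members were assigned to the dexamethasone arrays (30.8% of all genes). Mcm6, a subunit of the replicative helicase, had 0.96, Ccnd1, a cyclin of G1 phase, 0.91, Top2a, a topoisomerase, 0.86 and Mki67, a marker of dividing cells, 0.76. Mki67 and Top2a lay near the low end of the arrays' range, where replicate 2 of hdac6ko dexamethasone stood out: Mki67 read 2.79, 3.61 and 2.66 there, and Top2a 2.64, 3.72 and 2.62. The other Top2a probe set gave -0.15. The cell-cycle count was 2 without wild-type vehicle replicate 2 and 1 without the 4 arrays with pancreas transcripts.

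The classical targets that glucocorticoids induce responded in like numbers in both genotypes. None had an interaction at an adjusted p under 0.05 (limma, lowest 0.32), and the estimates lay in both directions. Of 35 listed glucocorticoid-induced genes 33 were tested. At an adjusted p under 0.05, 26 rose in wild type (4.57% of all genes) and 26 in the knockout (4.38% of all genes). At an unadjusted p under 0.05 the interaction was above 0 for 5 and below 0 for 4. Together these are 27.3% of the list, against 6.19% of all genes. The median interaction was 0.00, and 18 members were assigned to the vehicle arrays (27.9% of all genes). The median genotype difference was -0.04 under vehicle and -0.03 under dexamethasone. The count of 5 was 8 without hdac6ko dexamethasone replicate 3.

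Fkbp5, a co-chaperone of the receptor, rose by 5.01 in wild type and 4.71 in the knockout. Tat, an enzyme of tyrosine breakdown, rose by 1.03 and 1.40, and Pck1, a rate-limiting enzyme of gluconeogenesis, by 0.87 and 1.39. Their interactions were -0.30 ± 0.32, 0.38 ± 0.22 and 0.52 ± 0.29 (SE). Igfbp1, an insulin-like growth factor binding protein, and Ppargc1a, a coactivator of gluconeogenic genes, rose in both genotypes and had interactions of -0.79 ± 0.83 and -0.01 ± 0.28 (SE), with signs that turned under some alternatives. The other Ppargc1a probe set gave -0.37.

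Dusp1, a phosphatase that ends MAP kinase signalling, had the smallest interaction p on this list. It read 7.21, 6.59 and 6.37 in wild-type vehicle, 9.97, 10.29 and 9.54 in wild-type dexamethasone, 8.27, 7.63 and 8.07 in hdac6ko vehicle and 9.74, 9.58 and 9.57 in hdac6ko dexamethasone arrays. The hdac6ko vehicle arrays were above the wild-type vehicle arrays, and the dexamethasone arrays overlapped. Dusp1 rose 9.25-fold in wild type and 3.11-fold in the knockout (adjusted p = 1.6e-06 and 0.00040), an interaction of -1.57 ± 0.32 (SE, adjusted p = 0.32).

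Mt2, a metallothionein, read 5.59, 6.23 and 6.05 in wild-type vehicle and 4.99, 5.17 and 5.20 in hdac6ko vehicle arrays, and 11.70 to 11.96 in the 6 dexamethasone arrays. It was lower in the knockout under vehicle alone (-0.84, adjusted p = 0.048), with an interaction of 0.81 ± 0.20 (SE, adjusted p = 0.53). Tsc22d3, an anti-inflammatory target of the receptor also called GILZ, and Klf15, a transcription factor of amino acid breakdown, likewise lay lower in all hdac6ko vehicle arrays, with interactions of 0.84 and 0.63.

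Sult1e1, which sulfates estrogens, differed under dexamethasone instead. It read 9.87, 9.40 and 8.91 in wild type and 7.76, 8.12 and 8.54 in the knockout there, and 1.91 to 2.42 in the 6 vehicle arrays, which is near the low end of the arrays. Its interaction was -1.22 ± 0.33 (SE, adjusted p = 0.60). G6pc, the last enzyme of glucose release, differed by 0.89 in wild type and -0.29 in the knockout, neither past the threshold, and the interaction of G6pc was -1.18 ± 0.46 (SE, adjusted p = 0.75). Its wild-type vehicle arrays read 9.91, 8.36 and 9.96, and without replicate 2, the low one, the interaction was -0.66.

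The glucocorticoid receptor and its chaperones gave no member at an unadjusted p under 0.05 among 13 tested, with a median interaction of 0.11. Without wild-type dexamethasone replicate 1 there were 2, with a median of 0.20, and 1 without hdac6ko dexamethasone replicate 1 or 3, with medians of 0.18 and 0.01. The smallest p belonged to Fkbp4, a co-chaperone, with 0.33 ± 0.18 (SE). Of 16 gluconeogenic genes 2 were above 0 (3.42% of all genes) and 2 below (2.77% of all genes) at an unadjusted p under 0.05. Above 0 there was 1 without hdac6ko vehicle replicate 2. Below 0 there was 1 without replicate 1 of either dexamethasone group or with arrays centred on their medians, and 1 on each side without the 4 arrays with pancreas transcripts. Klf15 and Gpt, an aminotransferase that feeds alanine into the pathway, had 0.63 and 0.40, and G6pc and Fbp1, fructose bisphosphatase, -1.18 and -0.30.

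Of 26 fatty acid oxidation genes 19 had values below 0 (16 with arrays centred on their medians), while 50.4% of all genes had values above 0. Their median was -0.13. At an unadjusted p under 0.05 there was 1 of 26 below 0 (3.85%), near the share of all genes (2.77%). It was Acot1, a cytosolic thioesterase that cleaves acyl-CoA and a target of the fatty acid receptor Ppara. It read 4.71, 4.95 and 4.90 in wild-type vehicle, 6.84, 6.76 and 7.0 in wild-type dexamethasone, 5.17, 5.05 and 5.12 in hdac6ko vehicle and 6.17, 6.29 and 5.98 in hdac6ko dexamethasone arrays. The knockout was above wild type in every vehicle array and below it in every dexamethasone array. Acot1 rose 4.04-fold in wild type and 2.05-fold in the knockout (adjusted p = 9.0e-08 and 3.7e-05), and was lower in the knockout under dexamethasone (-0.72, adjusted p = 0.044). The interaction was -0.98 ± 0.15 (SE, adjusted p = 0.16). Acot1 has close paralogs, of which Acot2 had -0.47 and Acot3 0.05, and probes may be shared among them. The count of 1 below 0 was 6 without the 4 arrays with pancreas transcripts, 4 without hdac6ko vehicle replicate 3, and 2 without wild-type vehicle replicate 2, wild-type dexamethasone replicate 3 or hdac6ko dexamethasone replicate 1 or 2.

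Genes of growth hormone, insulin and IGF signalling had 3 of 23 below 0 at an unadjusted p under 0.05 (2.77% of all genes). None was above 0 (3.42% of all genes), and the median was -0.15. Igfals, the circulating partner of IGF1, fell by 0.48 in the knockout (adjusted p = 0.023) with -0.02 in wild type. Irs1, an insulin receptor substrate, fell by 0.74 and 1.55, and its other probe set, near background, gave an interaction of -0.04 against -0.82. Irs2 had -0.88. Male-biased liver genes had a median of -0.35 over 15 and 2 below 0 at an unadjusted p under 0.05 (2.77% of all genes). Without the 4 arrays with pancreas transcripts the median was -0.06, with 2 above 0 and none below. It was -0.10 without wild-type vehicle replicate 2, -0.61 without its replicate 3, -0.22 without hdac6ko vehicle replicate 2 and -0.21 without hdac6ko dexamethasone replicate 1. The count of 2 was 4 without wild-type vehicle replicate 3, 0 without hdac6ko vehicle replicate 2, and 1 without wild-type vehicle replicate 1 or 2 or wild-type dexamethasone replicate 1.

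Tubulin and cytoskeleton genes included members that differed in opposite ways. Tubb2a, a beta-tubulin, read 5.47, 4.99 and 4.70 in wild-type vehicle and 6.56, 6.05 and 6.08 in hdac6ko vehicle arrays, and 4.06 to 4.56 in all dexamethasone arrays. It was higher in the knockout under vehicle (1.18, adjusted p = 0.044), with an interaction of -1.16 ± 0.28 (SE, adjusted p = 0.45). Tubb5, another beta-tubulin, fell by 1.37 in wild type (adjusted p = 0.00056) and differed by -0.42 in the knockout. It was above wild type in all hdac6ko dexamethasone arrays, with an interaction of 0.95 ± 0.28 (SE, adjusted p = 0.62).

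The 15 genes with the smallest p above 0 were chosen on the interaction itself, so the wild-type response lies below the knockout response in all of them by that choice. As a description, 11 fell and 3 rose in wild type with dexamethasone at an adjusted p under 0.05, and 1 fell and 4 rose in the knockout. By origin 4 belonged to the vehicle arrays, 5 to the dexamethasone arrays, and 6 had opposite differences. Rasa3, a GTPase-activating protein for Ras and Rap1 (probe set 10577190, chromosome 8), read 5.67, 5.70 and 5.50 in wild-type vehicle, 4.48, 4.74 and 4.61 in wild-type dexamethasone, 4.81, 4.73 and 5.08 in hdac6ko vehicle and 5.15, 4.95 and 5.01 in hdac6ko dexamethasone arrays. It was lower than wild type in all knockout arrays under vehicle and higher in all under dexamethasone. Rasa3 fell 2.02-fold in wild type (adjusted p = 6.5e-05) and differed by 0.17 in the knockout. Its interaction was 1.19 ± 0.16 (SE, adjusted p = 0.0756, and 0.035 to 0.35 over the alternatives).

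Fgl2, a fibrinogen-like protein of macrophages and endothelium, read 4.29, 3.59 and 3.84 in wild-type vehicle, 3.24, 3.23 and 3.02 in wild-type dexamethasone, 3.43, 3.27 and 3.28 in hdac6ko vehicle and 3.75, 3.77 and 3.73 in hdac6ko dexamethasone arrays. It fell in wild type (-0.74, adjusted p = 0.0044), with 0.42 in the knockout and an interaction of 1.16. Several others are genes of immune cells or of the interferon response. Slfn2, a regulator of lymphocyte quiescence, had 1.08, Clec12a, an inhibitory lectin of myeloid cells, 1.21, Tlr8, a sensor of single-stranded RNA, 0.98, Igsf6 1.04 and the interferon-inducible Epsti1 0.65. Ralb, a small GTPase, had 0.69 and Pgap3, an enzyme that remodels lipid anchors, 0.58. Tlr8 lay between 2.12 and 3.21, close to the arrays' 20th percentiles of 2.17 to 2.23.

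Map2k6 and Neurl3 differed in the vehicle arrays. Map2k6, a kinase that activates p38, read 5.44, 5.20 and 5.46 in wild-type vehicle, 5.95, 5.97 and 6.35 in wild-type dexamethasone, 4.31, 3.62 and 3.90 in hdac6ko vehicle and 5.74, 6.16 and 6.17 in hdac6ko dexamethasone arrays. Its interaction was 1.37 ± 0.25 (SE, adjusted p = 0.25), and the knockout was lower under vehicle by 1.43 (adjusted p = 0.0078). Neurl3, a ubiquitin ligase, read 4.42, 4.46 and 4.33 and then 3.67, 3.29 and 3.57 in the wild-type and hdac6ko vehicle arrays, and fell with dexamethasone to 2.65 to 2.99 in both genotypes, an interaction of 0.99.

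The 15 genes with the smallest p below 0 were chosen in the same way, which puts the wild-type response above that of the knockout. Of these, 11 rose and none fell in wild type with dexamethasone at an adjusted p under 0.05, and 4 rose and 4 fell in the knockout. By origin 4 belonged to the vehicle arrays, 6 to the dexamethasone arrays, and 5 had opposite differences. Treh, which splits trehalose, rose by 2.20 in wild type and 1.20 in the knockout. Gdap10 rose by 1.32 in wild type (adjusted p = 0.00027), with 0.22 in the knockout, and was lower in the knockout under dexamethasone (-1.54, adjusted p = 0.0058). Scara5, a ferritin receptor, rose by 3.77 and 2.99 and was higher in the knockout under vehicle (0.77, adjusted p = 0.029) with no difference under dexamethasone (-0.01). Fzd7, a Wnt receptor, fell by 1.39 in the knockout (adjusted p = 0.00012) with -0.40 in wild type.

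The remaining members were Slc2a4, the insulin-regulated glucose transporter, at -0.71, Lonrf3 at -1.25, Apold1, an endothelial protein, at -0.66, Mtnr1a, a melatonin receptor, at -0.64, Zfp202 at -0.60, Olfr1342 at -0.67, Ly6m at -0.50 and Elobl at -0.79. Olfr1342, Ly6m and Elobl had no value above 2.77 in any array, so their differences lie within the dimmest signals measured.

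Some of the largest interactions among genes past the dexamethasone threshold in at least 1 genotype were also the most variable. Serpina4-ps1, a pseudogene of a protease inhibitor, had -2.70 ± 0.93 (SE), and its hdac6ko vehicle arrays read 7.15, 10.26 and 9.68. Hhex and Foxq1, transcription factors, fell in the knockout (-2.41 and -1.74, adjusted p = 0.018 and 0.042) with -0.23 and 0.05 in wild type, and had interactions of -2.18 ± 0.81 and -1.79 ± 0.68 (SE). Gadd45g, a stress-response gene, rose in both genotypes by 5.34 and 3.69, and its hdac6ko vehicle arrays read 3.96, 5.62 and 7.29. Kcnk5, a potassium channel, rose by 2.43 in the knockout (adjusted p = 0.00018) with 0.59 in wild type, an interaction of 1.85 ± 0.42 (SE). Rangrf, a nuclear import factor, had -1.56, and its other probe sets gave 0.28 and -2.23.

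Most genes lowered by dexamethasone had the larger estimated response in wild type, with the values as deposited. The dexamethasone effect averaged over both genotypes passed an adjusted p under 0.05 for 3085 genes (17.2%), and passed in 2064 genes (11.5%) in wild type and 1485 (8.29%) in the knockout. Among the 1779 lowered genes the estimate was smaller in the knockout for 1210 (68.0%), with a median difference of -0.11. Among the 1306 raised genes it was smaller for 577 (44.2%), with a median of 0.03. For a lowered gene a smaller estimate in the knockout is an interaction above 0, which 50.4% of all genes had. These shares are given for the deposited scaling only, and centring each array moved the median interaction of all genes to 0.07. Opposite responses were estimated for 11 of the 3085 genes. The wild-type count of 2064 was 559 without the 4 arrays with pancreas transcripts, which leave wild-type vehicle with 1 array.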

How the data were processed

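Liver RNA was hybridised to 12 single-colour Affymetrix whole-transcript arrays, and the deposited values are log2 intensities made by the authors with R 2.10.0 and affy, per the submitters' processing notes. Their normalisation is not stated there. Of 34760 probe sets 21640 had 1 gene symbol, 1321 several and 11799 none, and only the first were named. A gene with several probe sets was represented by the one with the highest mean over the 12 arrays. Genes above the array's 20th percentile in at least 3 arrays were tested (17904). Group means were fitted with limma 3.58.1 in R 4.3.3 (with the data.table package, 1.17.8), with eBayes and Benjamini-Hochberg adjustment over all tested genes. The fit was tested on simulated arrays with known interactions. At an adjusted p under 0.05 (limma) it recovered 0.4% of interactions of 0.5 in size, 79.3% of those of 1 and 98.2% of those of 2. The count of 0 genes therefore says little of interactions near 0.5 in size. The labels do not say more of the replicates than that they are biological, and 3 arrays a group limit the precision.

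Named genes were Hdac6, 8 glucocorticoid or clock targets, the 15 smallest interaction p in each direction, the 10 largest interactions among genes past the dexamethasone threshold, and up to 4 members with the smallest p in each list described; predicted genes were not named. Other genes named, among them Ciart, Timd4, C1qb, Marco and Cd163, were chosen after their values were seen. The members and lists were chosen with earlier results of these data known. Replicate numbers were not used to pair the arrays in the main fit. Over 18 same-numbered pairs, deviations from group means correlated between -0.54 and 0.36, with 3 over 0.1. Differently numbered pairs were not set beside them, so these values cannot say whether the arrays were paired.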

Additional observations from a re-analysis of the deposited data

How the results depend on the processing

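Over 23 alternatives the number of genes with an interaction at an adjusted p under 0.05 was 0, except 1 without the 4 arrays with pancreas transcripts and 0 to 3 with 1 array left out. The number at an unadjusted p under 0.05 lay between 755 and 1424. The genotype effect under vehicle was called for 5 to 28 genes with 1 array left out, 5 without the 4 arrays with pancreas transcripts and 7 with the pancreas covariate. Under dexamethasone the count was 1 to 37 with 1 array left out, 3 with no filter on low values, 2 with the highest-variance probe set, 3 with the replicate block, 1 without the 4 arrays and 2 with the covariate. The wild-type dexamethasone count was 559 without the 4 arrays, which leave 1 wild-type vehicle array assumed to vary like the others. The arm of origin was the vehicle arrays for a share of genes that was 20.2% with array weights, 44.2% without the 4 arrays and 14% to 36.9% with 1 array left out. With replicate number as a block, 0 genes passed for the interaction, 1136 had an unadjusted p under 0.05, and 24 were called under vehicle. The interaction of Ppargc1a turned to 0.062 with centred arrays, 0.09 without wild-type vehicle replicate 2, 0.13 without its replicate 3, 0.06 without wild-type dexamethasone replicate 1, 0.05 without hdac6ko vehicle replicate 3 and 0.18 without hdac6ko dexamethasone replicate 1, within -0.25 to 0.18 over arrays left out. The interaction of Igfbp1 turned to 0.0015 without hdac6ko dexamethasone replicate 3, within -1.36 to 0.0015. Where not given by fewer arrays or genes, the cause was not tested.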

Other observations

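The other 25 gene lists, with 423 tested members, had median interactions from -0.10 for neutrophil markers to 0.20 for drug-metabolising cytochrome P450s. At an unadjusted p under 0.05, 16 of these members were above 0 (3.42% of all genes) and 10 below (2.77% of all genes). The lowest adjusted p was 0.32 (limma), for Dusp1. Probe sets with several gene symbols or none gave 0 of 10559 at an adjusted p under 0.05 (limma) and 622 (5.89%) at an unadjusted one. Myh1, a skeletal muscle myosin, and Spink1, a trypsin inhibitor made in pancreas, passed the adjusted threshold without wild-type vehicle replicate 3, at 1.59 and 1.40, and had 0.24 and 0.04 without the 4 arrays with pancreas transcripts.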
